A study of Homo sapiens with 22 samples.

Results

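MTBP peaks in L1 elements are the 812 peaks, on chromosomes 1 to 22 and X, whose centre the authors annotated to a LINE repeat of the L1 family and which they placed in neither the promoter nor the enhancer class. They were chosen by that annotation alone, and made up 5.71% of the 14228 peaks of the remaining location class, called Others, and 2.72% of all 29848 MTBP peaks. A further 4 such peaks lay on Y and were left out. Names beginning L1P, with L1HS, are the primate L1 subfamilies (237 peaks), and names beginning L1M are the older mammalian ones (542 peaks). The other 33 peaks carried HAL1 names, a shorter element related to L1.

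The peaks came from DLD-1 cells, a cultured line from a human colorectal adenocarcinoma. FLAG CUT&RUN, which frees the DNA around an antibody's target with a tethered nuclease, was done in 3 libraries of cells of genotype MTBP-mAID/MTBP-deltaC-FLAG (deltaC), 3 of MTBP-mAID/MTBP-WT-FLAG (WT) and 3 of untagged MTBP-mAID/MTBP-mAID cells. In all 3 genotypes at least 1 MTBP copy thus carried mAID, an auxin-inducible degron. CUT&RUN for the histone mark H3K4me2 (2 libraries) and with IgG (2 libraries) used DLD-1 cells whose genotype the labels do not give. EdU-seq, the sequencing of newly made DNA, was done in released deltaC cells, released WT cells and WT cells held in G1 (3 libraries each), with 10 µM EdU for 3 hr. The untagged, IgG and G1 libraries were not analysed here, so the FLAG signal of cells without a FLAG tag at these L1 peaks is not known. The labels do not say whether a line is 1 clone. The lists hold 1 value per peak and line and no library values, so no difference between the lines could be tested. The 95% intervals below (Wilson for a share, Newcombe for a difference of shares, order statistics for a median) cover counting error only and treat peaks as independent, and do not measure the spread between cultures. Library depth is not known from these lists.

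MTBP is the partner of Treslin. The pair acts when the replicative helicase is activated at origins, the places where DNA replication starts. L1 is the one autonomous retrotransposon family still mobile in humans, copying itself through RNA with its own reverse transcriptase. A full-length copy carries an internal promoter at its 5′ end, with a binding site for the transcription factor YY1 near its first bases, and an antisense promoter. Most copies are 5′ truncated fragments without a promoter. H3K4me2 marks active promoters and enhancers, and L1 promoters are normally held silent by DNA methylation and by silencing complexes such as HUSH.

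No genome or repeat coordinates were used here, so the L1 copy under each peak and the place of the peak within it are not shown. The only sequences at hand within these peaks were RefSeq windows of 250 bases before to 50 after an annotated start (GRCh38.p14). Start windows of 2 genes met a member, and 1 window of each is shown as the sequence at an L1-annotated peak. The LOC105372692 window lies wholly within its peak, and of the METTL24 window the last 183 of 300 bases do. The letters were searched on both strands for AAGATGG, the core of a YY1 site, and capitals mark the match.

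METTL24 (chr6:110330009-110330308, minus strand): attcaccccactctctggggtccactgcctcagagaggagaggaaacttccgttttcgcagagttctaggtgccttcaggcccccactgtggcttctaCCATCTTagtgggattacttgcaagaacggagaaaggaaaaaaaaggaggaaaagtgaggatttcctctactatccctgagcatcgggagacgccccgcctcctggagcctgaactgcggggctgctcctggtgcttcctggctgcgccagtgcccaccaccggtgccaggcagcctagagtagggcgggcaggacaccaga

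LOC105372692 (chr20:57718424-57718723, plus strand): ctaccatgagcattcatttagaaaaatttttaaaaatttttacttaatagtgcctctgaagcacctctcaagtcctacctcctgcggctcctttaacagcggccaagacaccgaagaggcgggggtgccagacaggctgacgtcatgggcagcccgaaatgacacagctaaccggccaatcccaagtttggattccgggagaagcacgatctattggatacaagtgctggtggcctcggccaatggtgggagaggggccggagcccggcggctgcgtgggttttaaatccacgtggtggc

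METTL24 encodes a methyltransferase-like protein. Its window met an L1MD2 peak (6:110329634-110330191, score 121, signal 138 in deltaC and 218 in WT), and held the motif 1 time, on the other strand, as CCATCTT. That match (6:110330204-110330210) lies beyond the end of the peak and is not under it. Of all 35116 RefSeq start windows, 5.84% held AAGATGG on either strand. LOC105372692 is annotated as a long non-coding RNA, and its window lay within an L1ME4a peak (20:57717638-57719168, score 434, signal 284 in deltaC and 760 in WT) without the motif. Both peaks overlapped H3K4me2 and neither lay in an initiation zone. The METTL24 window had a GC content of 58.0% and 10 CpG dinucleotides, the LOC105372692 window 53.7% and 15, a second, overlapping LOC105372692 window in the same peak (20:57718503-57718802) 65% and 27, and the medians over all windows were 58.7% and 14. By the authors' own start sites the METTL24 peak lay 12061 bp from the nearest one. All members lay at least 2026 bp from a start site by that measure, since class Others reaches no closer than 2000 bp, so distance from promoters is part of how the members were chosen.

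The 812 peaks fell under 103 repeat names, of which 30 were primate (L1HS and names beginning L1P) and 69 began with L1M. L1PB1 had the most (41 peaks), before L1MB7 (35), L1ME1 and L1M4 (33 each), L1PA3 (31), L1PA2 (29) and HAL1 (26). The 29 names with at least 10 peaks held 539 of the peaks, and 13 names had 1 peak. Among the primate names, L1PA2 to L1PA4 had 73 peaks, L1PA5 to L1PA8 24, L1PA10 to L1PA17 46, L1PB 80 and the remaining L1P names 13. Among the older ones, L1ME had 180, the numbered names such as L1M4 112, L1MB 88, L1MC 84, L1MA 43 and L1MD 35. L1HS, the youngest subfamily and the one that still moves, had 1. How many L1 copies of each name the genome holds was not used here, so these numbers are not rates per copy.

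Along the chromosomes the members were spread at 0.268 per Mb. Chromosome 2 had the most (77), then chromosome 3 (66) and chromosome 1 (63). Per Mb, chromosome 10 was highest (0.374), and X (0.0385), chromosome 19 (0.0853) and chromosome 18 (0.0997) were lowest. On X this went with few MTBP peaks of any kind, since L1 made up 5.36% of the class Others peaks there. On chromosomes 18 and 19 the L1 share was itself low, at 2.44% (8 peaks) and 3.11% (5 peaks), and it was highest on chromosome 7, at 7.50%.

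**Figure D1:**
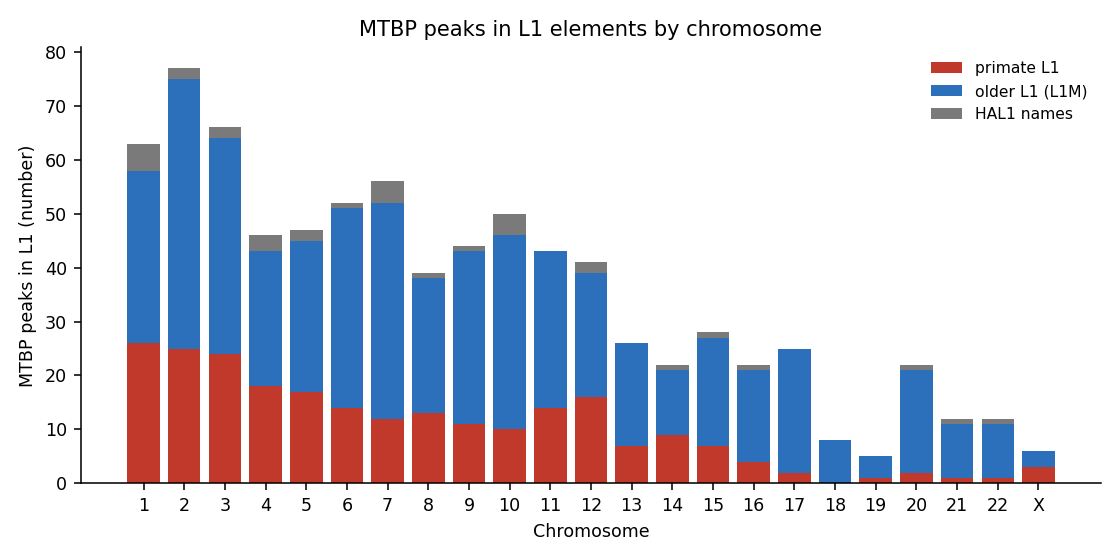
Number of MTBP peaks in L1 (y axis) on each chromosome (x axis), stacked as primate L1, older L1 and HAL1 names. Chromosome 2 has the most, 77, and X has 6, of which 3 are primate and 3 older.

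Some members lay close to each other. In all, 15 pairs of neighbouring members were within 10 kb, and 3 of those had the same name. The number of pairs that their density would give was not worked out. The closest pair was 2 HAL1 peaks on chromosome 4, 1065 bp apart (4:183171659-183174339). The tightest group of 3 was intergenic, about 100 kb from PCSK5, a proprotein convertase gene (9:75775984-75788671). It was chosen after its values were seen, and holds an L1MA3 peak and 2 L1PA15 peaks. Their signal in deltaC was 525, 122 and 120, against 931, 225 and 652 in WT, so the L1PA15 peaks had nearly the same signal in deltaC and far apart ones in WT.

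Of the members, 391 (48.2%) lay inside a protein-coding gene, and this share was 39.2% for primate L1 and 51.3% for older L1. The share of the other class Others peaks inside a coding gene was not worked out, so no background stands beside these values. RMDN2, which encodes a microtubule-associated protein, was the one gene with 3 members, in an L1MB7, an L1PA7 and an L1MEh element. Their signal was 162, 32.1 and 69.0 in deltaC, against 447, 181 and 174 in WT. All 3 were thus more than 2-fold lower in deltaC, and none was in a zone, the nearest zones being 25670, 109101 and 13262 bp away. A further 25 genes had 2 members. Named from the tie by the alphabet, ADAMTSL1, a matrix protein gene, had an L1MA7 and an L1MB8 peak, and AFG2A, a gene of ribosome maturation, had an L1PA4 and an L1ME3A peak. APC, the tumour suppressor of the Wnt pathway, was another, and was picked from the tie for its role in colorectal cancer. Its HAL1 peak (5:112795591-112796513) had a signal of 215 in deltaC and 260 in WT, and its L1ME3 peak (5:112761984-112762871) 341 in deltaC and 307 in WT, outside any zone. The first was thus slightly lower and the second slightly higher in deltaC.

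The authors' score of a member ranged from 44 to 1336, with a median of 180, the same as that of the other class Others peaks (180). The highest belonged to a pair of L1PB1 peaks on chromosome 9. The first (9:100739062-100740138, score 1336, signal 592 in deltaC and 1106 in WT) was 151211 bp from CAVIN4, a caveola gene of muscle, and the second (9:72843818-72844936, score 1177, signal 457 in deltaC and 1153 in WT) was 6080 bp from TMC1, a channel gene of inner ear hair cells. The others of the top 10 were, in falling order, an L1MB5 peak in SLC44A1, a choline transporter gene (score 917), an L1ME3 peak in SIPA1L1, a Rap GTPase-activating protein gene, an intergenic L1PA3 peak on chromosome 2, an L1M4 peak in TMEM131, a gene of collagen secretion, and an L1MB2 peak in ACSL3, a fatty acyl-CoA synthetase gene (all 4 with a score of 858). An L1PBa peak near FAM171B (829), an L1M2 peak near ABTB2 (815) and an L1PA15 peak near ATL2, a gene of endoplasmic reticulum fusion (786), completed them, and an eleventh peak tied at 786. Of these 10, 5 were primate, 5 lay on chromosome 2 and 3 on chromosome 9. Among all 812 members, 237 were primate, 77 lay on chromosome 2 and 44 on chromosome 9. The median score of class Others peaks was 201 on chromosome 2 and 190 on chromosome 9, against 180 over the whole class. All of the top 10 overlapped H3K4me2 and 1 was in a zone.

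The lowest scores belonged to an L1M4 peak in FAM83B (44), an L1M3f peak in ARSB, a lysosomal sulfatase gene (47), and an L1MEf peak near CCNJ (54). The first of these had a signal of 76.4 in deltaC and 72.5 in WT. Close to gene ends, members were rare by selection. The 5 closest lay 1295 to 2139 bp from an end, of AKR1C1, an aldo-keto reductase gene (L1PBa), GKN2, a gastrokine gene (L1PA16), COMMD5 (L1M5), C6orf58 (L1PA2) and ST6GALNAC1, a sialyltransferase gene (L1ME3G). Only the last of these was in a zone.

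The comparison of young and old L1 gave the clearest contrast in peak shape. Peaks in L1HS and L1PA2 to L1PA4 were narrow, with a median width of 502 bp (interval 471 to 615 bp, 74 peaks), whereas the other primate peaks had a median of 785 bp (751 to 848 bp), older L1 831.5 bp (809 to 861 bp) and the other class Others peaks 844 bp (838 to 851 bp). Over all primate peaks the median was 710 bp (672 to 755 bp). WT signal followed the same order across these sets. It was 251 in L1HS to L1PA4 (210 to 275), 291 in all primate peaks (273 to 319), 337 in older L1 (320 to 356) and 343 in the other class Others peaks (339 to 346). The score did not follow, with medians of 201 (180 to 222), 190 (170 to 201), 180 (170 to 190) and 180 (180 to 190) in the same sets. The other primate peaks had a median WT signal of 323 (291 to 363), an interval that overlapped that of older L1. By subgroup, L1PA5 to L1PA8 (24 peaks) had a lower median WT signal than L1PA2 to L1PA4 (225 against 251) but wider peaks (718 against 509 bp). Signal that is summed over a peak would move with its width, and the sources used here do not say how it was scaled. Nor do they say how reads that fit several near-identical L1 copies were placed.

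**Figure D2:**
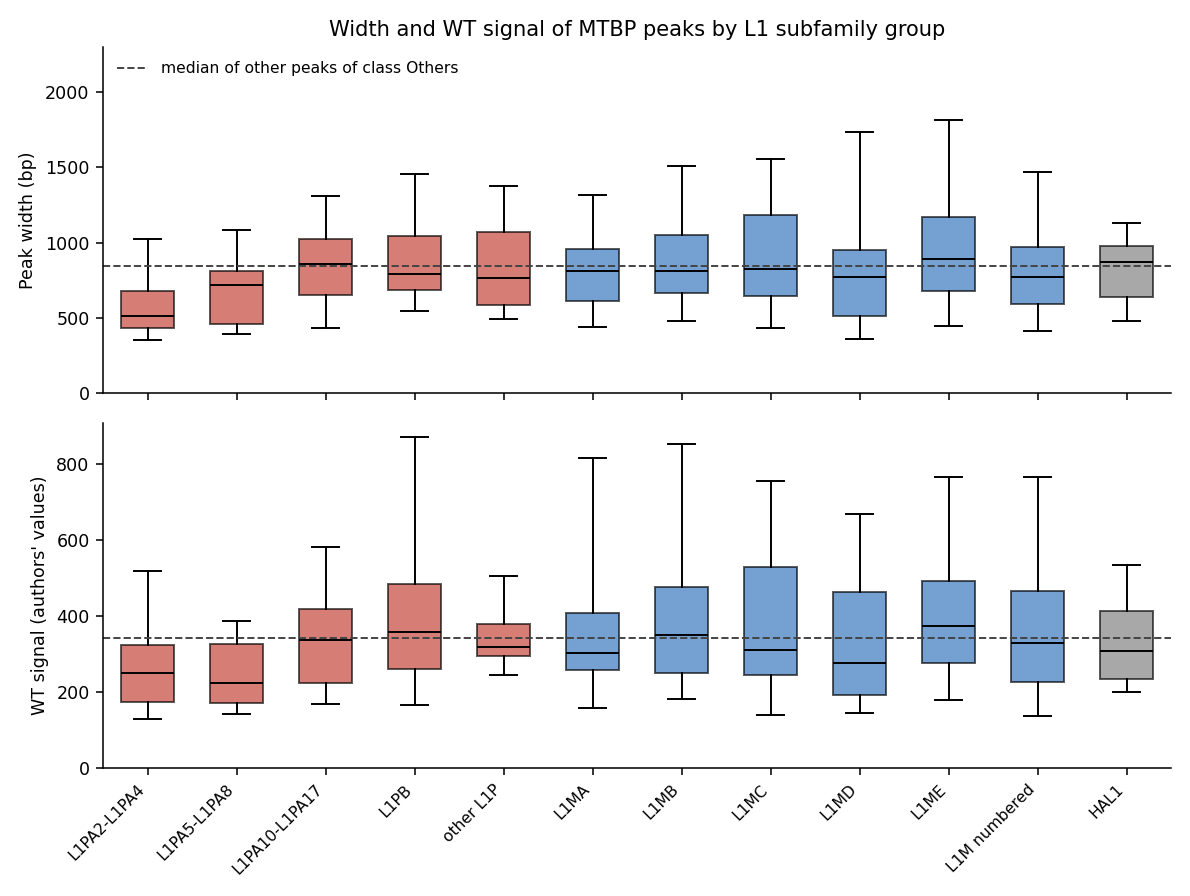
Peak width in bp (upper panel) and the authors' WT signal (lower panel) by L1 subfamily group, with medians, quartiles (boxes) and the 5th to 95th percentile (whiskers), and the median of the other class Others peaks as a dashed line. L1HS (1 peak) is not drawn. L1PA2 to L1PA4 have the narrowest peaks, median 509 bp, and L1ME the widest, median 892.5 bp.

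The single L1HS peak lay in ITGB6, an integrin subunit gene of epithelia (2:160114512-160114994). Its score was 180, its width 483 bp and its signal 138 in deltaC and 201 in WT. It overlapped an H3K4me2 peak of 30.7-fold enrichment and lay 105077 bp from the nearest zone. ITGB6 also held an L1PA7 peak (2:160180473-160181587), with a signal of 173 in deltaC and 336 in WT.

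Nearly all members were at H3K4me2, as were nearly all MTBP peaks. Of the 812 members, 797 overlapped an H3K4me2 peak (98.2%, interval 97.0 to 98.9%), against 98.3% of the other class Others peaks and a background of 98.9% of all MTBP peaks. The difference from the other class Others peaks was -0.17 points (-1.37 to 0.59). All 74 peaks in L1HS to L1PA4 overlapped H3K4me2 (interval 95.1 to 100%). The share was 98.3% in primate and 98.0% in older L1. The overlapped H3K4me2 peaks were somewhat stronger under primate L1, with a median fold enrichment of 20.3 (19.0 to 21.8), against 17.5 (16.3 to 18.5) under older L1 and 20.1 (19.9 to 20.3) under the other class Others peaks. In L1HS to L1PA4 the median was 22.7 (21.7 to 24.1, range 8.04 to 52.7). Without those youngest names the primate median was 18.4 (17.1 to 20.2), so the difference between primate and older L1 rested largely on them.

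The 15 members without H3K4me2 comprised 4 primate and 11 older peaks, and had scores of 47 to 180. The 5 with the highest scores were an L1M5 peak in HAGH, a glyoxalase gene, an L1PB1 peak near FAM86B2, an L1MA2 peak in EXOC6B, an exocyst gene, an L1MA3 peak near KNL1, a kinetochore gene, and an L1M1 peak near DDX10, an RNA helicase gene. Only the last lay in a zone. FAM86B2 was 127324 bp away from its peak. The L1PB1 peak had a signal of 293 in deltaC and 166 in WT, and the other 4 were lower in deltaC than in WT.

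Members were less often in initiation zones than MTBP peaks elsewhere in the same class. The authors' 2473 zones, stretches in which EdU-seq placed the start of replication, covered 4.72% of the chromosomes. Released cells were labelled with EdU for a limited time, so sites that start replication outside that time may be missing from the zones. Whether members outside zones lie at such sites was not tested. The zones held 96 of the 812 members (11.8%, interval 9.78 to 14.2%), against 15.8% of the other class Others peaks (15.2 to 16.4%). The difference was -3.99 points (-6.13 to -1.52). The backgrounds were 15.6% of class Others and 23% of all MTBP peaks. Of the other repeat families in class Others, Alu peaks lay in zones in 26.2%, ERV long terminal repeats in 16.4% and L2, CR1 and MIR elements in 15.3%. The members in zones were spread over 88 zones, of which 8 held 2 and none more.

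The low share was that of primate L1. Of the 237 primate peaks 9 were in a zone (3.80%, interval 2.01 to 7.06%), whereas 83 of the 542 older peaks were (15.3%, 12.5 to 18.6%), a difference of -11.5 points (-15.2 to -7.23). Older L1 and the other class Others peaks were -0.50 points apart (-3.36 to 2.83). HAL1 names stood at 12.1% (4 of 33). On 18 of the 22 chromosomes with peaks of both ages the primate share was the lower one, on 3 it was the higher one, and on 1 both were 0. Some of the 18 held few primate peaks, 1 each on chromosomes 19, 21 and 22 and 2 each on 17 and 20. A share of 0 there says little, so the tally does not show that the difference held on each chromosome. No peak in L1HS or L1PA2 to L1PA4 was in a zone (0 of 74, Wilson upper bound 4.93%, and 4.05% if the limit is set at 3 peaks), and the nearest lay 7191 bp from one. That was an L1PA3 peak near MAN1A2, a mannosidase gene (1:117358212-117358701, signal 122 in deltaC and 158 in WT). Of those 74 peaks, 13 lay within 100 kb of a zone. Without all 74 peaks of L1HS to L1PA4, 5.52% of primate peaks were in zones, and the difference from older L1 was -9.79 points (-14.0 to -4.38).

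By subgroup, the shares were 8.33% for L1PA5 to L1PA8, 6.52% for L1PA10 to L1PA17 and 5% for L1PB, and 0 of 13 for the remaining L1P names. Among older names the share was 6.98% for L1MA, 17.05% for L1MB, 22.6% for L1MC, 14.3% for L1MD, 17.8% for L1ME and 8.04% for the numbered names. L1MA and the numbered names thus stood nearer to primate L1 than to the rest of the older ones, and their intervals (2.40 to 18.6% and 4.29 to 14.6%) overlapped both. Of single names, L1MC5a had 7 of 17 peaks in zones (41.2%, 21.6 to 64.0%) and L1PB1 1 of 41 (2.44%). These 2 were picked after their values were seen.

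**Figure D3:**
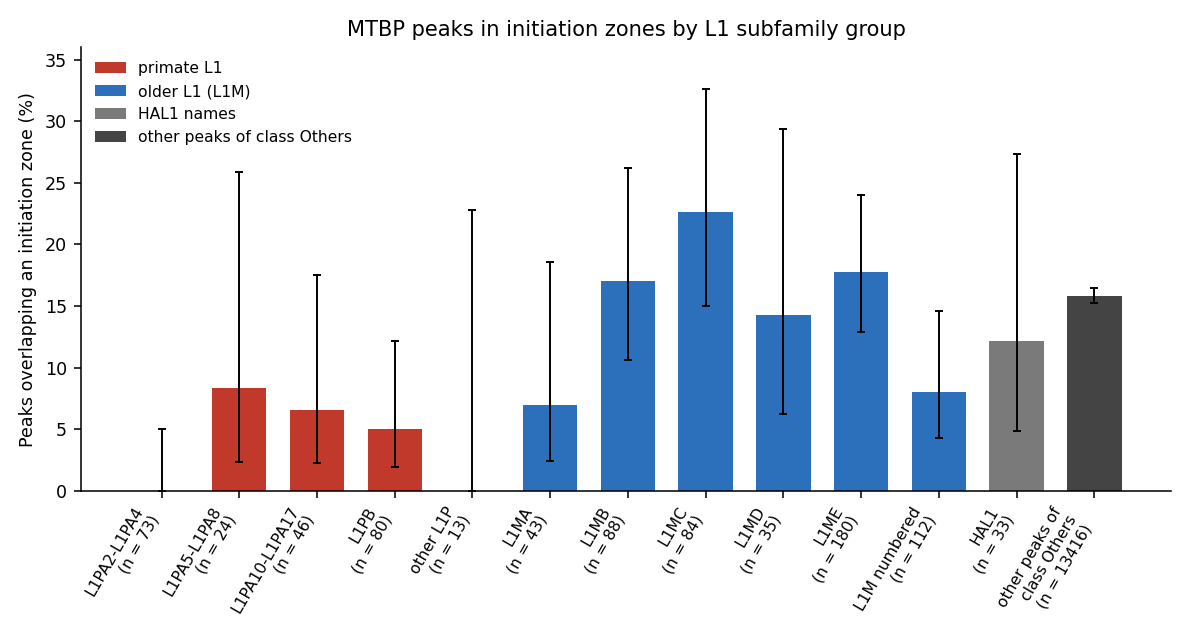
Share of MTBP peaks that overlap an initiation zone, in percent (y axis), by L1 subfamily group and for the other class Others peaks, with 95% Wilson intervals (bars) and the number of peaks under each name. L1HS (1 peak, outside zones) is not drawn. L1PA2 to L1PA4 have 0 of 73 in zones and L1MC has 22.6%.

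Primate peaks also lay farther from zones and among fewer H3K4me2 peaks. Their median distance to a zone was 868904 bp, against 295166 bp for older L1 and 338514 bp for the other class Others peaks. The median number of H3K4me2 peaks centred within 50 kb was 3 for primate peaks, 4 for older L1 and 5 for the other peaks. When peaks with alike surroundings were set side by side, the primate share stayed the lowest in the middle bins. With 3 to 5 H3K4me2 peaks around, 2 of 106 primate peaks were in zones (1.89%, interval 0.52 to 6.62%), against 9.91% of older L1 (6.64 to 14.5%) and 8.65% of the other peaks. With 6 to 10, the primate share was 11.5% (6 of 52, 5.40 to 22.97%), against 30.6% (24.0 to 38.2%) and 26.8%. With 0 to 2, the shares were 1.30%, 2.21% and 0.975% and the intervals overlapped, and only 2 primate peaks had 11 or more. With the primate shares weighted to the counts of older L1, the difference was -10.4 points. Among peaks at least as wide as the median member it was -14.6 points, and over 10 kb from a start site, where 3.41% of primate and 11.7% of older peaks lay in zones, it was -8.28 points. These alternatives, the weighting included, were chosen after seeing the data. The weighting merged the bins of 6 to 10 and of 11 or more.

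**Figure D4:**
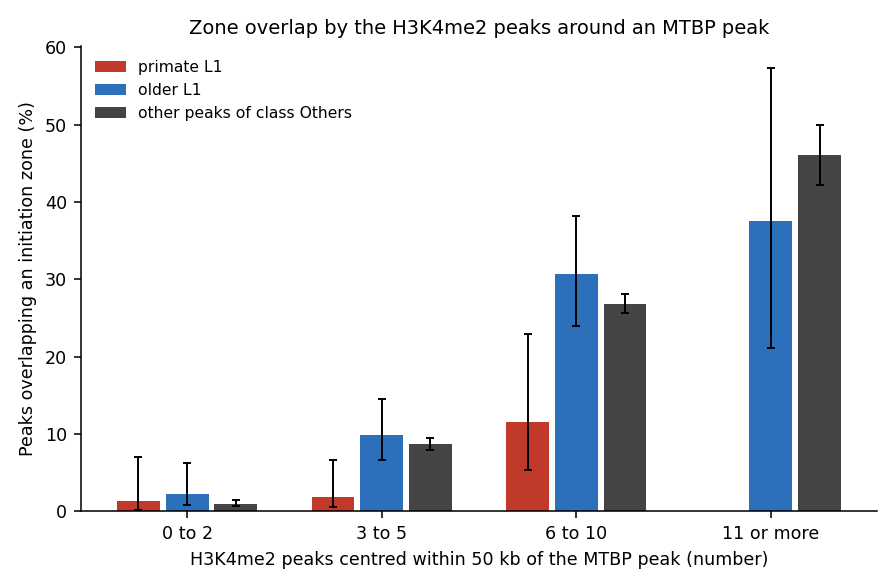
Share of MTBP peaks overlapping an initiation zone, in percent (y axis), by the number of H3K4me2 peaks centred within 50 kb (x axis), for primate L1, older L1 and the other class Others peaks, with 95% Wilson intervals. The 2 primate peaks with 11 or more are not drawn. With 6 to 10 H3K4me2 peaks around, 11.5% of primate and 30.6% of older L1 peaks are in zones.

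The 9 primate peaks in zones were 4 of L1PB names, 3 of L1PA10 or L1PA15 and 1 each of L1PA6 and L1PA8. The L1PA15 peak near ATL2 (2:38394017-38396548) had the strongest signal of all members in both lines, 972 in deltaC and 1916 in WT. The others had signals of 35.6 to 299 in deltaC and 149 to 570 in WT, and their nearest genes included PERP, a p53 target, MXI1, a MYC antagonist, MMP7, a matrix metalloproteinase, and FTH1, ferritin heavy chain. The zone with the highest score that held a member was 6:43662969-44083397, with an L1ME1 peak (signal 94.6 in deltaC and 287 in WT). The coding gene end closest to that peak, 138489 bp away, was that of MRPL14, a mitochondrial ribosomal protein gene. The next zone, near ZBTB17, which encodes the MYC partner MIZ1, held 2 members 5566 bp apart. Its L1PB1 peak (1:15978937-15979646) had a signal of 103 in deltaC and 246 in WT, and its L1MC5a peak (1:15985212-15986494) 292 in deltaC and 980 in WT. An L1ME4a peak in ANXA4, an annexin gene, and an L1ME2z peak near ARF6, a small GTPase gene, followed. All 5 were lower in deltaC than in WT.

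Outside class Others the same order of primate and older L1 was seen. Over every location class there were 990 L1 peaks, of which 67 were promoter and 111 enhancer peaks. In promoter-class peaks 1 of 17 primate and 14 of 49 older L1 peaks were in zones, and in enhancer-class peaks 3 of 29 and 28 of 78. The primate sets are small. Zone shares of all promoter-class and all enhancer-class MTBP peaks were not worked out, so these counts stand without a background. L1HS to L1PA4 had 0 of 91 in zones over all classes.

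MTBP signal in L1 was lower in deltaC than in WT by about the amount seen across all peaks. The median was 184 in deltaC (interval 177 to 192) and 323 in WT (314 to 337). The median log2 ratio, log2((deltaC + 1)/(WT + 1)), was -0.91 (-0.96 to -0.86), against -0.88 (-0.89 to -0.87) in the other class Others peaks and -0.93 over the whole list. The pseudocount of 1 keeps peaks listed at 0 in the calculation. Members named for WT (781) had a median log2 ratio of -0.94, and those named for deltaC (31) one of 0.36. The sign thus went with the line whose calls defined each set, and most members came from WT calls. Of the members, 344 were at least 2-fold lower in deltaC (42.4%), against a background of 44.9% of all MTBP peaks, and 4 were at least 2-fold higher (0.493%), against 0.419%. Both shares lay near the background. In all, 56 members had a higher value in deltaC (6.90%), against 6.43% of the other class Others peaks and 4.52% of all MTBP peaks. The scaling of the signal between the lines is not given, so the ratio shows how peaks stand relative to each other and not the amount of MTBP on DNA.

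Primate and older L1 had nearly the same ratio. The median log2 ratio was -0.92 in primate (-1.001 to -0.836) and -0.92 in older L1 (-0.98 to -0.87), and in L1HS to L1PA4 it was -0.93 (-1.04 to -0.77). HAL1 names stood at -0.68 (-0.87 to -0.55, 33 peaks). L1PA2 to L1PA4 had a median signal of 123 in deltaC and 251 in WT. Members inside zones had a lower ratio, -1.11 (-1.22 to -0.99), than those outside, -0.88 (-0.92 to -0.84). The same gap was present in the other class Others peaks, -1.10 in zones and -0.85 outside, so it was not particular to L1.

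**Figure D5:**
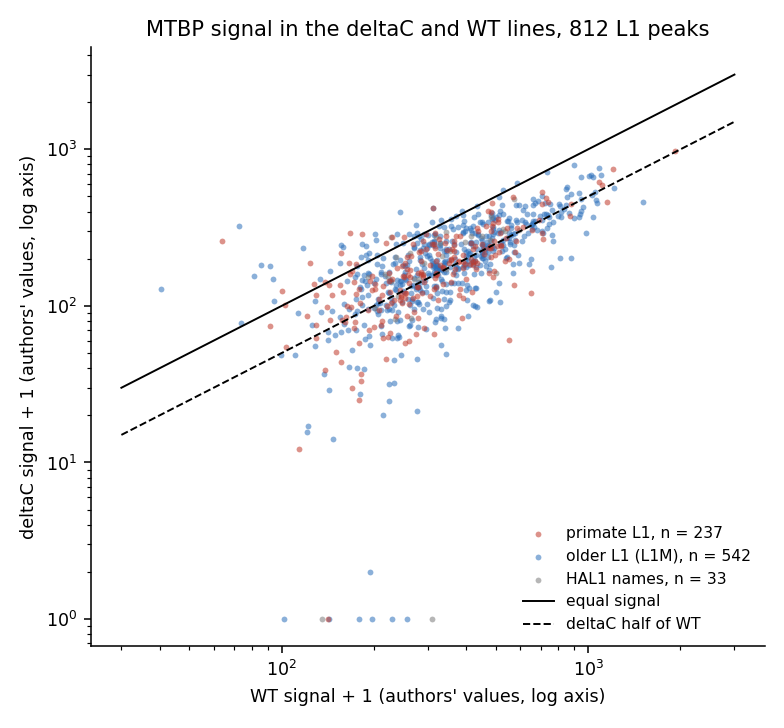
The authors' signal + 1 in the deltaC line (y axis, log scale) against the WT line (x axis, log scale) for the 812 members, coloured by primate L1, older L1 and HAL1 names, with a solid line for equal signal and a dashed line for a 2-fold lower signal in deltaC. Most points lie under the line of equal signal, 56 lie above it, and the 9 points at the bottom are listed at 0 in deltaC.

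Single members departed from this. Among members of at least the median mean signal, the highest deltaC over WT ratios were those of an L1ME3A peak in PRKCA, a protein kinase C gene (signal 397 in deltaC and 243 in WT), an L1ME4a peak in SLCO2A1, a prostaglandin transporter gene (422 and 310), an L1PREC2 peak in EHBP1, a gene of endocytosis (420 and 310), an L1MD1 peak in ULK4 (289 and 237) and an L1ME3G peak in RCSD1 (328 and 273). All 5 lay outside zones, and none reached a 2-fold difference. The lowest were those of an L1PA15-16 peak in AGBL4, a tubulin deglutamylase gene (59.8 in deltaC and 549 in WT), the L1PA15 peak near PCSK5 (120 and 652), an L1ME1 peak near OPA1, a mitochondrial fusion gene (104 and 513), an L1MC5a peak near SLC37A3 (97.7 and 433) and an L1M4a2 peak in PDSS2, a coenzyme Q synthesis gene (107 and 473). Those near OPA1 and SLC37A3 were in zones. OPA1 was 125182 bp away from its peak. These are single values per line, and the spread between the libraries of a line is not known.

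The 4 members at least 2-fold higher in deltaC were an L1MD2 peak in RIN3, a Rab5 regulator gene (321 in deltaC and 71.4 in WT), an intergenic L1PB2 peak on chromosome 10 (258 and 62.8), an L1ME4a peak in COL5A1, a collagen gene (126 and 39.4), and an L1M4 peak in ZBTB43 (181 and 84.4). All 4 lay far under the members' median WT signal of 323, which the choice by ratio favours. In deltaC, the RIN3 and L1PB2 peaks lay above the members' median of 184, and the COL5A1 and ZBTB43 peaks lay under it. The 9 members listed at 0 in deltaC (1.11%, against 0.798% of the other class Others peaks and 0.623% of all MTBP peaks) had signals of 101 to 309 in WT and comprised 6 older, 2 HAL1 and 1 primate peak. They included an L1M2 peak near SYNCRIP, an L1MD1 peak in MYO7B, a brush border myosin gene, and a HAL1M8 peak in IL34, the one of the 9 in a zone. SYNCRIP was 180406 bp away from its peak. Of the members, 31 carried a name that begins with deltaC (3.82%, against 4.29% of the other class Others peaks and 2.94% of all MTBP peaks), of which 9 were primate, 21 older and 1 HAL1.

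The 4 genes with published L1 antisense transcripts that were looked up held no member. MET, a receptor tyrosine kinase gene with such a transcript, had 7 MTBP peaks. None was a member, and 1, of the enhancer class, was annotated to L1PA2 (7:116723990-116724652, score 180), with a signal of 178 in deltaC and 257 in WT and outside any zone. RAB3IP had 1 MTBP peak and CHRM3 2, none in L1, and TFPI2 had none within 50 kb.

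Of 20 genes that hold L1 in check, 13 had an MTBP peak within 1 kb of an end (background 42.8% of coding genes) and 19 had H3K4me2 (background 64.3% of coding genes). Those with MTBP included TRIM28 and SETDB1, which deposit repressive chromatin on retroelements, MORC2 and PPHLN1 of the HUSH pathway, DNMT1, which maintains DNA methylation, and MOV10, SAMHD1 and TREX1, which act on L1 RNA or DNA. TASOR, MPHOSPH8, DNMT3A and ADAR had H3K4me2 without MTBP, and UHRF1 had neither. As a check on the cell type, 8 of 10 markers of colorectal epithelium had H3K4me2, the exceptions being CDH17 and LGALS4, and 5 had MTBP, beside the same backgrounds of 64.3% and 42.8%. Of 15 markers of other cell types 4 had H3K4me2 and 3 had MTBP (CD3E, COL1A1 and SNAP25).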

How the data were processed

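MTBP was mapped by FLAG CUT&RUN, histone H3K4me2 by CUT&RUN and replication initiation by EdU-seq in DLD-1 cells, in 22 libraries of 8 groups. Per the submitters' processing notes, the build was hg38, with Trim Galore, Bowtie2, MACS2 and HOMER among the tools. The handling of reads that fit several places, any pooling of replicates, and tool versions were not stated in the sources used here. The authors listed for each MTBP peak a score (its scale is not stated) and 1 signal value per line, each initiation zone a mean score, and each H3K4me2 peak a score, a fold enrichment ratio and −log10 p- and q-values. All are the authors' own values, used to describe, rank or filter. No per-sample column was left unused.

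Members were the peaks annotated to L1 in class Others on chromosomes 1 to 22 and X (10 of all MTBP peaks on Y were left out). The annotation refers to the peak centre, and in 49.4% of members the summit lay over 100 bp from it. An overlap of 1 bp or more counted as shared between lists, and lines were compared by log2((deltaC + 1)/(WT + 1)), with no test, since no library values were given and the planned count model needed them. Intervals (95%) were computed with Python 3.11.15, numpy 2.4.6, pandas 2.3.3 and scipy 1.17.1 and were tested on simulated data, and figures were drawn with matplotlib 3.10.9. Genes and start windows came from RefSeq's GRCh38.p14 tables, the assembly of hg38, with the gene table used without strand.

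Peaks were named by rule: the 10 highest and 3 lowest scores, every L1HS peak, the 5 highest and 5 lowest log2 ratios of at least median signal, the 5 in the zones of highest score, the 5 highest-scoring without H3K4me2, those closest to gene ends (5), those at genes with published L1 antisense transcripts, and the 3 genes with most members (ties by the alphabet). The rule also allowed gaps between genes. Several gaps held 3 members, as many as RMDN2, and were not named. The members, groups and gene lists were chosen with earlier results of these data known. Alternatives to the processing are given with their effect in the closing section.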

Additional observations from a re-analysis of the deposited data

How the results depend on the processing

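No paired analysis was possible because the lists give 1 value per line and no library values. Leaving out each replicate and the replicate block were not run for the same reason. The share of members in zones, 11.8% as reported, became 14.3% over every location class, 3.23% in the 31 peaks named for deltaC, 23.5% with zones widened by 50 kb, 8.62% with zones of at least the median score, and 8.78% over 10 kb from a start site (an alternative chosen after seeing the data). The H3K4me2 share of 98.2% became 100% in peaks of at least the median score, 96.8% in peaks named for deltaC and 68.3% against the H3K4me2 peaks with scores no lower than their median. The median log2 ratio of -0.91 became -0.97 in peaks of at least the median score and -0.86 in those of at least the median mean signal. It was -0.94 in peaks named for WT and 0.36 in peaks named for deltaC, each a set that the line's own calls define. The share of class Others that is L1, 5.71%, became 5.11% in peaks named for deltaC, and L1 of every class made up 3.32% of the whole list. The primate minus older difference in zone share, -11.5 points, was below 0 in 15 of 16 alternatives, from -16.3 points in peaks of at least the median score to 0 in the peaks named for deltaC. Most of these alternatives reuse largely the same peaks, so the tally is not a count of separate results. The peaks named for deltaC held only 9 primate and 21 older ones. Some of the 16 were chosen after seeing the data. These were without L1HS and L1PA2 to L1PA4, over 10 kb from a start site, wide peaks, without chromosomes 2 and 9, and weighted to H3K4me2 counts. The primate minus older difference in median log2 ratio, -0.0019 as reported, was 0.021 over every class, 0.0019 on autosomes, 0.0026 in peaks named for WT, 0.019 with a pseudocount of 10 and 0.0029 with L1PA alone, so it has no settled sign. The difference in median H3K4me2 fold, 2.76, was -1.86 in peaks named for deltaC and 0.90 without L1HS and L1PA2 to L1PA4 (also chosen after seeing the data). The difference in median width, -121.5 bp, was -197 bp in peaks of at least the median score, -200.5 bp with L1PA alone, -46.5 bp without L1HS and L1PA2 to L1PA4 and -20 bp in peaks named for deltaC. The cause of these moves was not tested. With no library values, nothing here measures the spread between cultures, and the small sets (1 L1HS peak, 13 of the remaining L1P names, 31 named for deltaC) limit what their shares can show.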
